A study of Mus musculus with 6 samples.

Results

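The cadherin superfamily genes of the mouse form the subject here, namely the cadherins (Cdh), the desmosomal cadherins (Dsc and Dsg), the giant Fat and Celsr cadherins, and the protocadherins (Pcdh). Members were picked by a rule on gene symbols among protein-coding genes, and 108 of the 46603 gene identifiers in the count files met the rule. The rule holds no measured value, but it was chosen with earlier results of these data known. Of these, 57 belong to the clustered protocadherins Pcdha, Pcdhb and Pcdhg and are summarised apart from the other 51. RNA sequencing counts came from mouse embryonic fibroblasts (MEFs) of BALB/c strain, labelled as from embryos of 10.5 days, with 3 libraries from wild-type cells (WT) and 3 from cells without beta-actin (β-actin-/-, KO). All 6 libraries came from cells held for 6 days in growth medium with insulin, dexamethasone, 3-isobutyl-1-methylxanthine (IBMX) and ascorbic acid, a mixture that drives fibroblasts toward adipocytes. The labels do not say how many embryos or cell lines stand behind each genotype or whether replicates were separate cultures, so p-values measure the spread between these samples, which may be technical.

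Cadherins are calcium-dependent adhesion receptors of the cell surface. Classical cadherins bind like cadherins on the next cell and anchor, through catenins, to the actin cytoskeleton, whereas desmosomal cadherins anchor to intermediate filaments. Fat and Celsr cadherins orient cells within a tissue, and the clustered protocadherins give neurons a combinatorial surface identity through the choice of alternative promoters. Fibroblasts are best known for N-cadherin (Cdh2) and cadherin-11 (Cdh11).

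Library totals ran from 26955708 to 38619711 counts, with 1 count or more for 20870 to 22198 genes. The upper limit behind a value of 0, set at 3 counts, equalled 0.0816 to 0.113 CPM by library (CPM, counts per 1e6 in TMM-scaled libraries), and such limits and the intervals below cover counting error only. Actb, the targeted gene, had 60501, 60582 and 53894 counts in WT replicates 1, 2 and 3 and 276, 1988 and 1850 in KO replicates 1, 2 and 3, low in every library labelled KO. KO replicate 1 stood apart from its group. Its root mean square log2 difference over genes was 0.803 from KO replicate 2 and 0.768 from KO replicate 3, against 0.375 between those and 0.390 to 0.428 among WT libraries. It was the lowest KO library in 36 of the 44 tested members (81.8%), against 44.4% of all tested genes. Values without it are therefore given where they change the call of a member, and for some of the partner genes. Of 13 tested fibroblast markers 9 were higher in KO and 0 lower, where 13.8% of all tested genes were higher and 14.5% lower by the test described next, and their summed level was 4506 ± 487 CPM in WT and 10436 ± 1524 in KO (SD, n = 3). Fn1 was the largest part of that sum, with means of 2109 CPM in WT and 4949 in KO. Col1a1 and Vim were abundant in both genotypes, while Col3a1 had means of 31.0 CPM in WT and 1021 in KO. Thy1 had 1 count over the 3 WT libraries and 50 over the KO libraries. Col1a2 had 28 and 590, Lum 27 and 438, and Fap 4 and 10.

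Across the superfamily, KO cells held more transcript of Fat4, Cdh18, Pcdh1, Pcdh10, Pcdh19 and the protocadherins at the far end of the Pcdhb cluster. They held less of Celsr1, Celsr2, Cdh24, Cdh13 and P-cadherin (Cdh3). N-cadherin (Cdh2) was also called higher. Its call, like those of Pcdhb21 and Pcdhb22, was lost with limma-voom and without any library but KO replicate 1. Of 108 members 81 had at least 1 count and 44 had enough counts to test. Of the 44, 26 passed the edgeR quasi-likelihood test at a Benjamini-Hochberg adjusted p under 0.05 over all 15009 tested genes, 17 higher and 9 lower in KO, where 28.3% of all tested genes passed, 13.8% higher and 14.5% lower. The members with non-overlapping CPM ranges numbered 17 with KO above and 9 with KO below, against 23.8% and 25.8% of all tested genes (49.6% in either direction). Their median log2 fold change (KO over WT) was 0.57 and their median absolute value 1.34, against 0.01 and 0.39 over all tested genes. Genes near 0 in a genotype pass the filter on low counts through the other genotype, so shares among tested members do not describe all 108. The split of higher and lower calls over all genes, 2074 and 2181, became 1351 and 3347 with library totals in place of TMM scaling, a shift of the median log2 fold change by -0.20, and no called member changed direction under any alternative run. In bulk RNA, fewer cells of a type and less RNA per cell cannot be told apart.

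**Figure D1:**
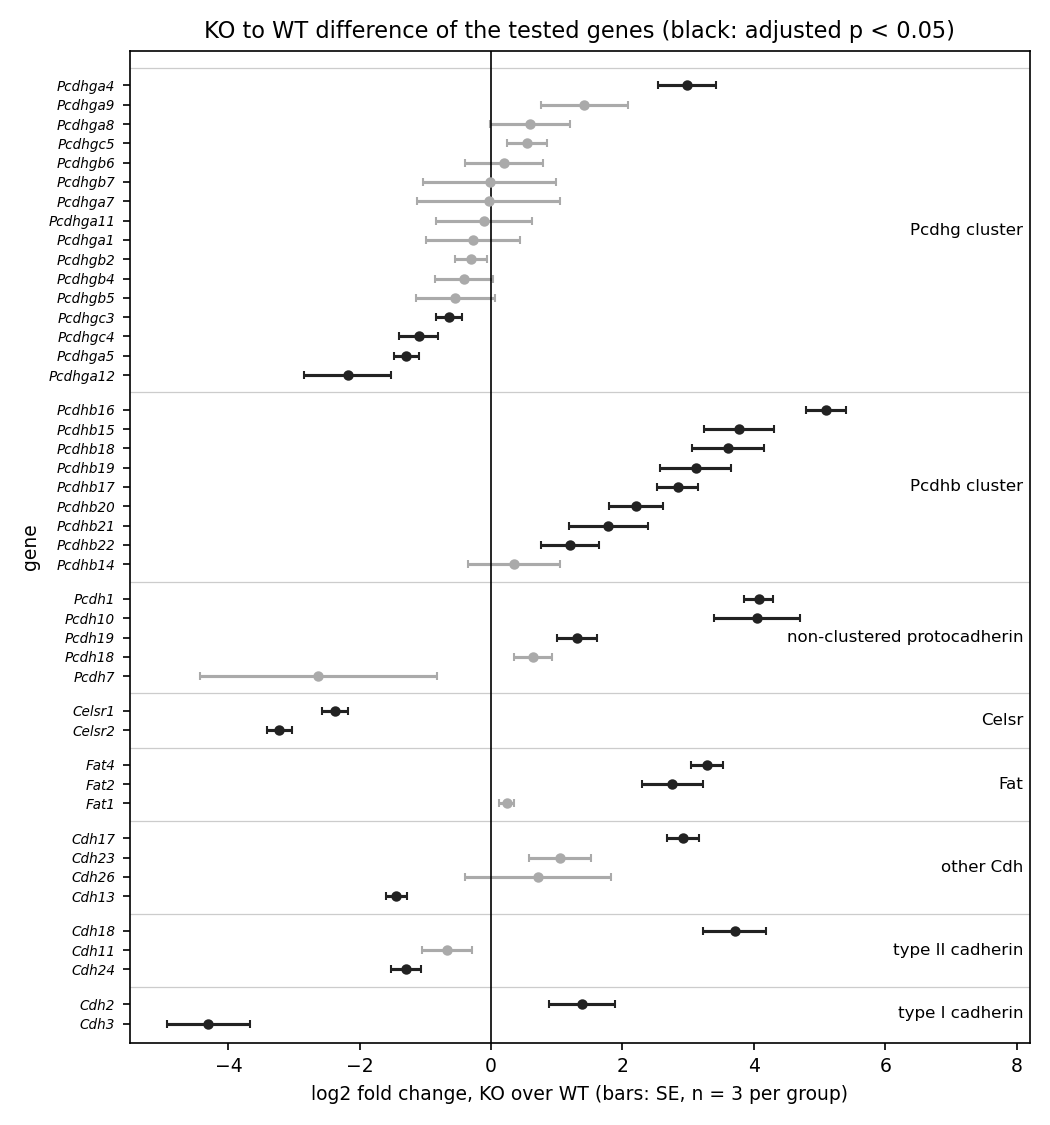
Log2 fold change of KO over WT for the 44 tested members, with bars for the standard error (n = 3 per group), grouped by subfamily on the vertical axis. The bars can be too short for genes near the limit of detection. Black points mark an adjusted p under 0.05. Pcdhb genes reach from 0.35 to 5.10, while most Pcdhg genes lie near 0.

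**Figure D2:**
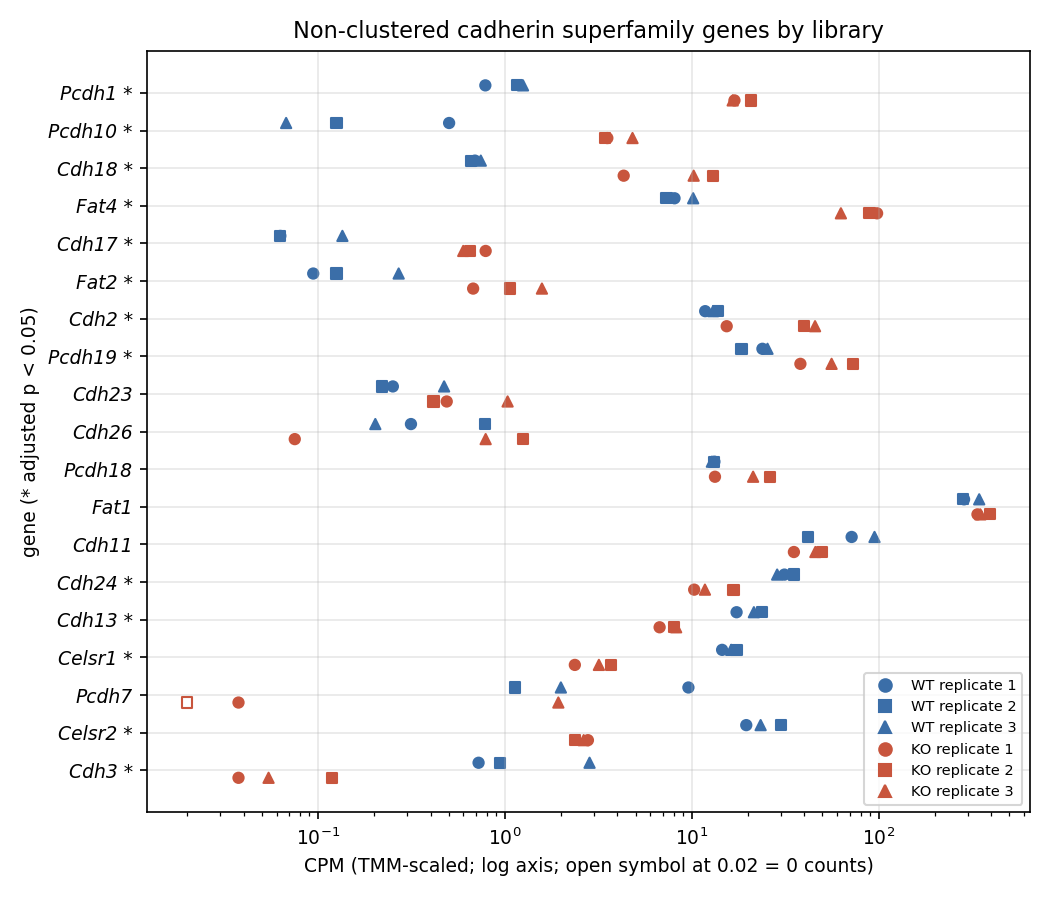
CPM of each tested non-clustered member in each of the 6 libraries, on a log axis, with genes ordered by log2 fold change and an asterisk for an adjusted p under 0.05. Blue symbols are WT and red symbols KO libraries, and their shapes mark the replicate number. The genotypes do not overlap in any of the 13 genes with an asterisk.

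Among the 51 non-clustered members 19 were tested, of which 8 were higher in KO, 5 were lower and 6 were not called, with a median log2 fold change of 0.71. The share called was 68.4%, beside 28.3% of all tested genes (13.8% higher and 14.5% lower). Without KO replicate 1 the counts were 9 higher and 6 lower of 20 tested, where 42.3% of all genes tested without that library were called. The added calls were Pcdh18, higher, and Cdh1, lower.

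The classical cadherins, types I and II, comprised 18 genes, and 5 of them were tested. N-cadherin, Cdh2, stood at 11.8, 13.8 and 13.0 CPM in WT replicates 1, 2 and 3 and at 15.4, 39.6 and 45.6 in KO. KO replicate 1 lay just above the WT libraries and the other KO libraries far above them. Its log2 fold change was 1.38 (SE 0.50, edgeR quasi-likelihood adjusted p = 0.0267), a 2.61-fold rise. This call was lost without WT replicate 1, 2 or 3 (adjusted p = 0.103, 0.0828 and 0.0918), without KO replicate 2 or 3 (0.0593 and 0.0710) and with limma-voom (0.0570). Cdh18, a type II cadherin described mainly in the nervous system, had 0.691, 0.660 and 0.743 CPM in WT and 4.32, 12.9 and 10.2 in KO. All KO libraries lay several times above all WT libraries, and the log2 fold change was 3.71 (SE 0.48, edgeR adjusted p = 0.00106).

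Cdh24, a catenin-binding type II cadherin, fell. It stood at 31.3, 35.3 and 28.6 CPM in WT and at 10.3, 16.7 and 11.7 in KO, without overlap, a log2 fold change of -1.29 (SE 0.23, edgeR adjusted p = 0.00358). P-cadherin, Cdh3, which is typical of epithelia, had 0.723, 0.943 and 2.84 CPM in WT and 0.0376, 0.119 and 0.0544 in KO. The KO libraries were near the limit of detection, and WT replicate 3 was above its group's other libraries together. Its log2 fold change was -4.31 (SE 0.63, edgeR adjusted p = 0.00521), or -3.47 without WT replicate 3. Cdh1, E-cadherin, lies next to Cdh3 on chromosome 8 (GRCm38, 106603351 to 106670246 against 106510891 to 106557297) and had too few counts to test. It had 29 over the WT and 6 over the KO libraries, so the WT over KO ratio was 5.03 (95% interval 2.05 to 14.8). Without KO replicate 1 it passed the filter and was called lower (log2 fold change -1.82, edgeR adjusted p = 0.0341). Cdh11, the cadherin of mesenchymal cells, had 71.6, 41.8 and 94.9 CPM in WT and 35.2, 49.9 and 45.8 in KO. The groups overlapped through WT replicate 2, and the log2 fold change of -0.67 (SE 0.38) was not called (edgeR adjusted p = 0.12), though without WT replicate 2 it was -0.94 (0.0296). Among untested classical cadherins Cdh15 (M-cadherin of muscle) had 17 counts in WT and 24 in KO, Cdh22 had 4 and 8, Cdh5 (VE-cadherin of endothelium) had 2 and 5, and Cdh6 had 7 and 0.

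Levels per kilobase of exon show how the classical cadherin pool was composed. In WT, Cdh24 (9.09 ± 0.966 CPM per kb, SD, n = 3) and Cdh11 (7.80 ± 2.99) did not differ beyond their spread, and Cdh2 followed at 1.60 ± 0.127. In KO the levels were 4.90 ± 0.854 for Cdh11, 4.16 ± 1.99 for Cdh2, 3.70 ± 0.967 for Cdh24 and 2.01 ± 0.967 for Cdh18, and Cdh11, Cdh2 and Cdh24 lay within their spread. All 3 KO values of Cdh18 (0.948, 2.84 and 2.25) were below those of Cdh24 (2.95, 4.79 and 3.37). Cdh2 made up 7.74%, 10.1% and 7.51% of the summed per-kb level of the 18 genes in the WT libraries and 19.0%, 26.9% and 34.3% in the KO libraries, with no overlap. The per-kb ratio of Cdh2 to Cdh11 was 0.182, 0.365 and 0.151 in WT and 0.482, 0.877 and 1.10 in KO. KO replicate 1 had the lowest sum of all libraries, 10.0 CPM per kb, against 18.3 and 16.5 in the other KO libraries and 17.0 to 21.5 in WT.

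**Figure D3:**
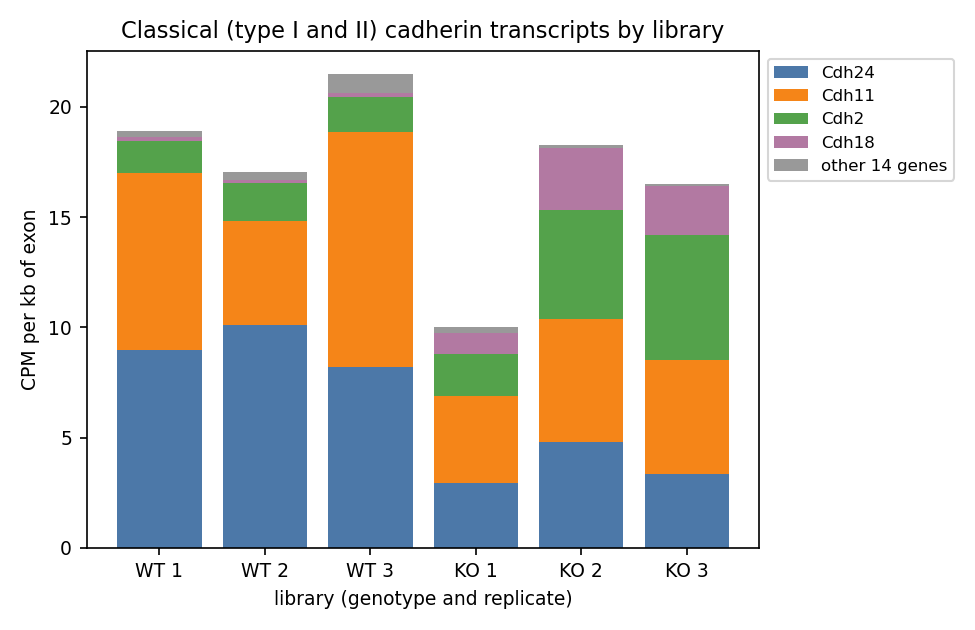
Stacked bars of CPM per kb of exon for the classical cadherins in each library, with Cdh24, Cdh11, Cdh2, Cdh18 and the sum of the other 14 genes as segments. Cdh2 and Cdh18 take a larger part of the bar in each KO library than in any WT library, and the bar of KO replicate 1 is the lowest.

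Of the 5 remaining Cdh genes 4 were tested. Cdh13, T-cadherin, which is held by a lipid anchor and binds adiponectin, had 17.3, 23.7 and 21.5 CPM in WT and 6.72, 8.01 and 8.24 in KO. The groups were well apart, and the log2 fold change was -1.44 (SE 0.16, edgeR adjusted p = 0.00132). Cdh17, the liver-intestine cadherin, rose from 0.0869 ± 0.0417 to 0.680 ± 0.0981 CPM (SD, n = 3), a log2 fold change of 2.92 (SE 0.24, edgeR adjusted p = 0.00256), with the WT libraries at or below the level of a few counts. At such counts the SE can be too small. Cdh23, a tip-link protein of hair cells, and Cdh26 were at log2 fold changes of 1.05 (SE 0.47) and 0.71 (SE 1.11) with overlapping groups and were not called (edgeR adjusted p = 0.155 and 0.546). Cdh16 had 3 counts in WT and 2 in KO.

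Among the giant cadherins Fat2 and Fat4 rose and Celsr1 and Celsr2 fell, while Fat1 was not called and Fat3 and Celsr3 were not tested. Fat4, the receptor that pairs with the protocadherin Dchs1 in tissue growth and planar polarity, had 8.08, 7.32 and 10.2 CPM in WT and 98.0, 89.1 and 62.7 in KO. The lowest KO library was several times the highest WT library, and the log2 fold change was 3.29 (SE 0.24, edgeR adjusted p = 0.000109), 9.77-fold. Dchs1, its ligand, which is no member by the symbol rule, had 16.4, 7.29 and 8.37 CPM in WT and 0.188, 0.356 and 0.272 in KO, a log2 fold change of -5.26 (SE 0.42, edgeR adjusted p = 0.000296). Receptor and ligand thus differed from WT in opposite directions in all KO libraries. The paralogous ligand Dchs2 was at -0.59 and was not called (adjusted p = 0.15). Fat1, which organises actin at cell contacts, was the most abundant member, with 286, 282 and 345 CPM in WT and 337, 392 and 350 in KO. Its groups overlapped, and its log2 fold change of 0.24 (SE 0.11) was not called (edgeR adjusted p = 0.205). Fat2, known from cerebellar granule cells, had 0.0943, 0.126 and 0.270 CPM in WT and 0.676, 1.07 and 1.58 in KO, a log2 fold change of 2.76 (SE 0.47, edgeR adjusted p = 0.00689) from a level near the limit of detection. Fat3 had 0 counts in all libraries. Of the exon bases of Fat1 and Fat4, 3.11% and 8.68% are shared with another gene, and this kit does not mark strand.

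Celsr1 and Celsr2, core proteins of planar cell polarity, fell. Celsr1 had 14.5, 17.3 and 16.2 CPM in WT and 2.37, 3.71 and 3.18 in KO, and Celsr2 had 19.5, 30.1 and 23.3 in WT and 2.78, 2.37 and 2.64 in KO. Neither gene's groups overlapped. Celsr1 was 5.18-fold lower (log2 fold change -2.37, SE 0.20, edgeR adjusted p = 0.000384) and Celsr2 9.36-fold lower (-3.23, SE 0.19, 0.000114). Celsr3 had 20 counts in WT and 26 in KO and was not tested.

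The 250 bases upstream of the annotated start are shown for 4 members, from RefSeq promoter sequences (GRCm38.p6). They are the 2 lower members in the window set used, Celsr2 and Cdh24, and 2 of its 5 higher ones, Fat4 and Pcdh10. Both of these lie on chromosome 3 like Celsr2. The set left out Cdh2 and Pcdh1, both called higher, as well as Pcdh12 and all desmosomal cadherins, so it does not describe every called member. Capitals mark CAGGTG, the E-box bound by Snail and Zeb factors, and GGGCGG, the GC box, on either strand (CACCTG and CCGCCC on the other), and these motifs do not overlap in the windows shown.
Fat4, chr3:38886690-38886939, plus strand: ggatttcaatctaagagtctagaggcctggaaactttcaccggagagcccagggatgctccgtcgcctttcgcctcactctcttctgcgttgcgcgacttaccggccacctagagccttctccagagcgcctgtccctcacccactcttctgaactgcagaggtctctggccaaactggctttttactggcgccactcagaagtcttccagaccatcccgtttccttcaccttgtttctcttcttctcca
Pcdh10, chr3:45378148-45378397, plus strand: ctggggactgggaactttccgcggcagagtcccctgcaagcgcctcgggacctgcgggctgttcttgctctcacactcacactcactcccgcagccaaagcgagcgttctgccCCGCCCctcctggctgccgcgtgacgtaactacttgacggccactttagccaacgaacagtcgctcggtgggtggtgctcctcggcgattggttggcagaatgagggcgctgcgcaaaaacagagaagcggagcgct
Celsr2, chr3:108415580-108415829, minus strand: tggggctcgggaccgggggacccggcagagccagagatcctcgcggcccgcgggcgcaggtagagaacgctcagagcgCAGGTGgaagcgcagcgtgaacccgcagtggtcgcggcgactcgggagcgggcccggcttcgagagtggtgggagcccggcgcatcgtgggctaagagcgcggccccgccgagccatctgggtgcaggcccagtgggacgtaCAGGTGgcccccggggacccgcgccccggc
Cdh24, chr14:54641365-54641614, minus strand: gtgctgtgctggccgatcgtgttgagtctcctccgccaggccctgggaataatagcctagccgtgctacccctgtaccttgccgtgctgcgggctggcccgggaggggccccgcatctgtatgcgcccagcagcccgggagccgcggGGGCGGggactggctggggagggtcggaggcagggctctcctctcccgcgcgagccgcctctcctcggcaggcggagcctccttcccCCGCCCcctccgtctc
Celsr2 held 2 CAGGTG and no GGGCGG, Cdh24 held 2 GGGCGG, Pcdh10 held 1 GGGCGG, and Fat4 held neither. The windows held 32 CpG dinucleotides in Celsr2, 22 in Cdh24, 22 in Pcdh10 and 11 in Fat4, against a median of 6 over all 32851 RefSeq windows. CAGGTG occurred in 17.2% of all windows and in 5 of the 31 windows used for 28 non-clustered members, and GGGCGG in 32.7% and in 10 of 31. N-cadherin, Pcdh1, Celsr1, Cdh3, Cdh13 and Cdh17 are not among these 28.

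The non-clustered protocadherins, 12 genes with 5 tested, included the largest rises outside the clusters. Pcdh1, a protocadherin of epithelia and endothelia, had 0.786, 1.16 and 1.25 CPM in WT and 16.9, 20.6 and 16.5 in KO. The KO libraries were alike and far above the WT libraries, with a log2 fold change of 4.08 (SE 0.22, edgeR adjusted p = 7.68e-05), 16.9-fold. Pcdh10, known from axon guidance in the forebrain, had 0.503, 0.126 and 0.0675 CPM in WT and 3.53, 3.44 and 4.81 in KO. WT replicate 1 was the highest of its group, and the log2 fold change of 4.05 (SE 0.65, edgeR adjusted p = 0.00256) was 5.27 without it, where the other WT libraries held 4 and 2 counts. Pcdh19, an X-linked gene whose protein binds N-cadherin and which is mutated in a human epilepsy, had 23.9, 18.4 and 25.4 CPM in WT and 38.1, 72.9 and 55.9 in KO. It rose without overlap by 1.30 (SE 0.31, edgeR adjusted p = 0.00725), and like Cdh2 it was lowest among KO libraries in replicate 1.

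Pcdh18, a protocadherin of embryonic mesenchyme, had 13.2, 13.1 and 12.8 CPM in WT and 13.3, 26.3 and 21.3 in KO. KO replicate 1 was level with WT, and the log2 fold change of 0.64 (SE 0.29) was not called (edgeR adjusted p = 0.088), but without KO replicate 1 it was 0.87 (0.00106), and DESeq2 gave 0.0452 with all libraries. Pcdh7 had 9.59, 1.13 and 1.99 CPM in WT and 0.0376, 0 and 1.93 in KO. Single libraries set its level in both groups, and its log2 fold change of -2.63 (SE 1.80) was not called (edgeR adjusted p = 0.186), against -7.67 (0.0167) without KO replicate 3, where the remaining KO libraries held almost no count. Pcdh9 had 26 counts over the WT libraries and 0 over the KO libraries and was not tested, and with 3 counts over the group as the floor it was at least 9.03-fold lower. Pcdh12 had 3 counts in WT and 4 in KO, and Pcdh15 had 1 and 2.

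The 9 desmosomal cadherins were nearly silent in both genotypes. None had more than 7 counts over the 6 libraries, 3 had none, and no member was tested. Dsg3 had 0 counts in WT and 7 in KO, Dsg2 had 4 and 2, Dsc2 had 3 and 0, and Dsc3 had 1 and 4. The plaque proteins that link desmosomal cadherins to keratin filaments were measurable, with 0 of 9 tested genes higher, 4 lower and 5 not called. The share called was 44.4%, beside 28.3% of all tested genes, and the median log2 fold change was -0.89. Without WT replicate 1, 2 or 3 or KO replicate 2 there were 3 lower (33.3%, beside 17.2%, 14.9%, 18.4% and 24.7% of all genes). Without KO replicate 1 there were 5 lower (55.6%, beside 42.3%), with Pkp1 added (-1.37, edgeR adjusted p = 0.00671). Dsp, desmoplakin, fell from 12.3 ± 3.55 to 0.779 ± 0.332 CPM (SD, n = 3), a log2 fold change of -3.95 (SE 0.42, edgeR adjusted p = 0.000467). Ppl, periplakin, fell from 39.9 ± 8.41 to 2.58 ± 1.55 CPM, by 3.93 on the log2 scale, and Evpl, envoplakin, fell by 3.71 (edgeR adjusted p = 0.000837 and 0.00515). Perp, a membrane protein needed for desmosome assembly, was lower by a log2 fold change of -1.51 (edgeR adjusted p = 0.0212), a call lost without WT replicate 1, 2 or 3 (0.0595, 0.0761 and 0.0546) or KO replicate 2 (0.0538). Jup, plakoglobin, which also serves classical cadherins, was at -0.17 and was not called (adjusted p = 0.415).

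The clustered protocadherins are encoded side by side on chromosome 18 (GRCm38, 36930184 to 37841873). Of 57 genes 25 were tested, of which 9 were higher, 4 were lower and 12 were not called, with a median log2 fold change of 0.35. The share called was 52.0%, beside 28.3% of all tested genes (13.8% higher and 14.5% lower). Without KO replicate 1, which was lowest of the KO libraries in 24 of the 25, the counts were 11 higher and 5 lower of 27 tested, again beside 42.3% of all genes called without that library. The Pcdha cluster was silent, with 1 count in total over its 14 genes and 6 libraries, in Pcdha1.

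The Pcdhb cluster, 22 single-exon genes with their own promoters, divided along its length. Its summed level was 10.7, 7.23 and 9.56 CPM in WT and 22.1, 44.6 and 43.7 in KO, a log2 ratio of group means of 2.01. Pcdhb1 to Pcdhb13 were all below the filter, with a sum of 0.882 ± 0.194 CPM in WT and 0.370 ± 0.226 in KO (SD, n = 3). Pcdhb5, at 32 counts in WT and 10 in KO, gave a WT over KO ratio of 3.33 (95% interval 1.60 to 7.60), and it was tested and called lower without KO replicate 1 (log2 fold change -1.56, edgeR adjusted p = 0.0479). The others of this stretch with at least 3 counts were Pcdhb9 (21 and 16 counts in WT and KO), Pcdhb7 (9 and 4), Pcdhb11 (4 and 3), Pcdhb8 (5 and 1), Pcdhb3 (4 and 0) and Pcdhb10 (2 and 1). Pcdhb14 was at a log2 fold change of 0.35 and was not called (edgeR adjusted p = 0.678).

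The next 8 genes, Pcdhb15 to Pcdhb22, were all called higher, where 13.8% of all tested genes were. Their sum went from 7.78 ± 1.41 to 35.8 ± 12.2 CPM. Pcdhb16 had 0.189, 0.126 and 0.169 CPM in WT and 3.68, 6.32 and 6.91 in KO. The WT libraries were near the limit of detection and the KO libraries far above it, with a log2 fold change of 5.10 (SE 0.31, edgeR adjusted p = 0.000204), 34.3-fold. Pcdhb17 rose from 0.839 ± 0.0922 to 6.02 ± 1.96 CPM (2.84, SE 0.31, 0.001) and Pcdhb18 from 0.290 ± 0.189 to 3.58 ± 0.669 (3.61, SE 0.55, 0.00184). Pcdhb19 was at 3.11 (edgeR adjusted p = 0.00307), Pcdhb20 at 2.20 (0.00642), and Pcdhb15 at 3.77 (0.00393), or 5.12 without WT replicate 3. The other WT libraries held 1 count of Pcdhb15 each, under the floor of 3 counts, so that value is no measure of size. Pcdhb22, the most abundant gene of the cluster, had 5.44, 3.90 and 4.49 CPM in WT and 5.41, 13.9 and 12.5 in KO, and its groups overlapped through KO replicate 1 (1.20, SE 0.45, edgeR adjusted p = 0.0407). It took 47.0% to 53.9% of the cluster's counts in WT libraries and 24.5% to 31.1% in KO, while Pcdhb16 went from 1.74% to 1.77% in WT to 14.2% to 16.7% in KO.

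The calls of Pcdhb21 (log2 fold change 1.79, edgeR adjusted p = 0.0308) and Pcdhb22 were lost without any library but KO replicate 1. The adjusted p without WT replicates 1, 2 and 3 and KO replicates 2 and 3 was 0.103, 0.112, 0.0967, 0.0728 and 0.0854 for Pcdhb21 and 0.0904, 0.146, 0.123, 0.102 and 0.102 for Pcdhb22. With the replicate number as a block it was 0.0710 and 0.109, with limma-voom 0.0672 and 0.0631, and for Pcdhb22 also 0.0767 with library totals and 0.0530 with upper-quartile scaling. Exons of these neighbours overlap in part.

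**Figure D4:**
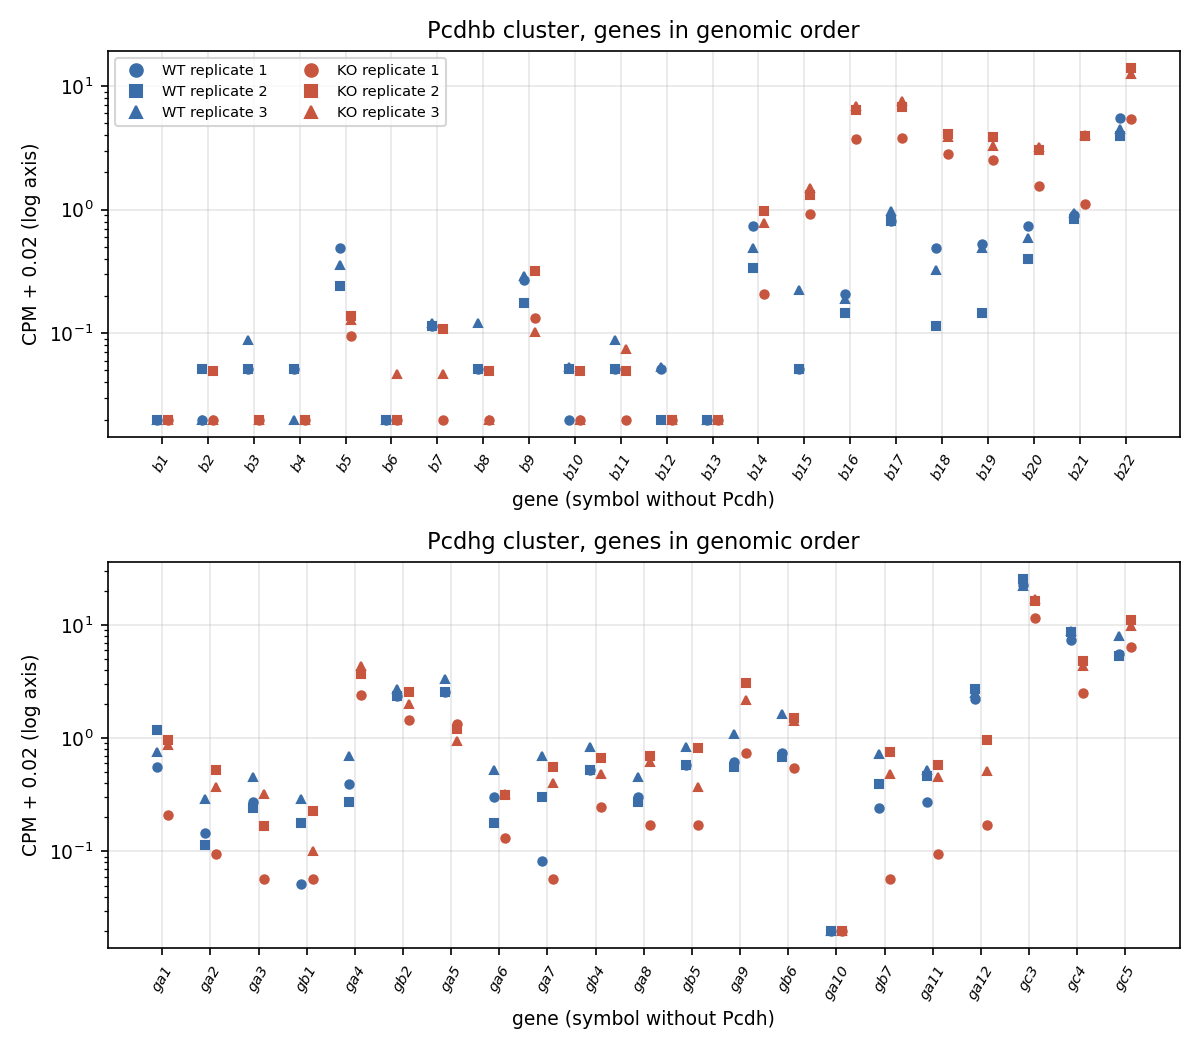
CPM plus 0.02 on a log axis for each gene of the Pcdhb (top) and Pcdhg (bottom) clusters in genomic order, with 1 symbol per library, blue for WT and red for KO. From Pcdhb15 to Pcdhb21 the KO symbols lie above the WT symbols, while in the Pcdhg cluster Pcdhga4 is higher and Pcdhga5, Pcdhga12, Pcdhgc3 and Pcdhgc4 are lower in KO.

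The Pcdhg cluster, whose variable exons are spliced to shared constant exons, held the larger sum, 47.1, 52.5 and 57.0 CPM in WT and 27.8, 51.1 and 47.1 in KO. The groups overlapped, and the log2 ratio of group means was -0.31. Of its 21 genes 16 were tested, 1 was higher, 4 were lower and 11 were not called. The share called, 31.25%, was near the 28.3% of all tested genes. Pcdhga4 rose from 0.377, 0.251 and 0.675 CPM in WT to 2.37, 3.65 and 4.32 in KO, without overlap, by 2.99 on the log2 scale (SE 0.44, edgeR adjusted p = 0.00242). Its share of the cluster's counts was 0.479% to 1.18% in WT libraries and 7.14% to 9.19% in KO. Pcdhga12 went the other way, from 2.20, 2.70 and 2.50 CPM to 0.150, 0.949 and 0.490 (-2.18, SE 0.66, edgeR adjusted p = 0.0190). Pcdhga5 fell from 2.79 ± 0.450 to 1.14 ± 0.199 CPM (-1.29, SE 0.19, 0.0121). The C-type genes Pcdhgc3 and Pcdhgc4, the most abundant of the cluster in WT together with Pcdhgc5, had log2 fold changes of -0.64 (SE 0.19, 0.0369) and -1.10 (SE 0.30, 0.0216), without overlap of the groups. Pcdhgc5 was at 0.54 (SE 0.31) and was not called (edgeR adjusted p = 0.179), and its share of the cluster was 9.99% to 13.9% in WT libraries and 20.98% to 22.7% in KO.

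Among the Pcdhg calls, Pcdhga4 passed without any 1 library and in every other setting run, and the others did not. Pcdhga12 lost its call without WT replicate 1, 2 or 3 or KO replicate 3 (edgeR adjusted p = 0.0562, 0.0695, 0.0626 and 0.0578) and had a log2 fold change of -2.87 without KO replicate 2. Pcdhga5 lost it without WT replicate 3 (0.0501) or KO replicate 3 (0.0510) and under a replicate block (0.0510). Pcdhgc3 lost it without WT replicate 1, 2 or 3 (0.0919, 0.140 and 0.0857), without KO replicate 2 or 3 (0.0551 and 0.0505) and under a replicate block (0.0603), and Pcdhgc4 without WT replicate 1, 2 or 3 (0.0554, 0.0834 and 0.0751). Without KO replicate 1, Pcdhgc5 (0.75, 0.0196) and Pcdhga9 (1.81, 0.00478, against 1.42 and 0.0915 with all libraries) were called higher. Between 31.5% and 73.6% of the exon bases of the tested Pcdhg genes are shared with another gene, so these counts are uncertain where reads on constant exons were assigned. The untested Pcdhga2, Pcdhga3, Pcdhga6 and Pcdhgb1 had 15 and 32, 28 and 17, 29 and 24, and 14 and 11 counts in WT and KO. Pcdhga10 had none, but 100% of its exon bases are shared with another gene, so its level is uncertain.

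Genes around the clusters, from 500 kb before to 500 kb after them, served as a local comparison chosen after values were seen. Of 64 such genes that are no members 29 were tested, and edgeR's quasi-likelihood test called 0, with 6 at an unadjusted p under 0.05. DESeq2 called 1 and limma-voom 1, in both cases Dnd1 (log2 fold change -1.17, adjusted p = 0.0177, and -1.23, 0.0428). The log2 fold changes ran from -1.55 to 1.31 with a median of 0.09. The lowest was that of Pcdhgb8, a gene of the Pcdhg cluster that is annotated as a polymorphic pseudogene and so is no member, and the other 28 ran from -1.17. Taf7, a general transcription factor gene between Pcdhb and Pcdhg, was at 0.45 (edgeR adjusted p = 0.121).

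Genes that work with cadherins were read from 7 lists. Of the 15 tested catenins and adherens junction genes 3 were higher (20.0% called, against 28.3% of all tested genes), 0 were lower and 12 were not called, with a median log2 fold change of 0.39. Ctnnb1, β-catenin, was at 0.17 (edgeR adjusted p = 0.333), Ctnna1, α-catenin, at 0.50 (0.0565) and Ctnnd1, p120-catenin, at 0.39 (0.0643), none of them called. With DESeq2 7 were higher and 1 lower of 15, beside 34.9% of all genes, and without KO replicate 1 7 were higher and 2 lower of 16, beside 42.3%. Ctnna1 (0.51, DESeq2 adjusted p = 0.0227, and 0.66, edgeR 0.000506 without KO replicate 1) and Ctnnd1 (0.40, 0.0175, and 0.41, 0.0208) were among the added higher genes. The higher genes with all libraries and edgeR were actin-binding or scaffold proteins of the junction, namely Lima1 (0.86, SE 0.08, edgeR adjusted p = 0.00184), which binds actin and α-catenin, Ablim1 (0.78, SE 0.16, 0.0083) and Magi1 (1.05, SE 0.23, 0.0102). Magi1 lost its call without WT replicate 1 (0.0506) or 2 (0.0532). In the list of further cadherin-domain genes, 6 were tested, with 1 higher, 2 lower and 3 not called (50.0% called). Without KO replicate 1, 3 of them were higher and 2 lower (83.3%, beside 42.3% of all genes). Besides Dchs1, Ret, a receptor kinase with cadherin-like domains, was lower (-1.30, edgeR adjusted p = 0.0195) and Clstn3, calsyntenin-3, was higher (2.63, 0.00424). Ret lost its call without WT replicate 1, 2 or 3 (0.0513, 0.0916 and 0.0559) or KO replicate 3 (0.0766) and under a replicate block (0.0516).

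Of 11 tested regulators of E-cadherin and of the epithelial state 4 were higher, 2 lower and 5 not called (54.5% called), with a median log2 fold change of 0.14. Without WT replicate 1 there was 1 higher and 1 lower of 12 (16.7% called), near the 17.2% of all genes tested without that library. Without WT replicate 2 there were 0 and 2 (16.7%), near the 14.9% of all genes. Without KO replicate 1 there were 5 and 3 (66.7%, beside 42.3%), with Twist1 added as lower (-0.42, edgeR adjusted p = 0.00942). The repressor genes Zeb1 and Zeb2 were higher (0.75, edgeR adjusted p = 0.0148, and 0.81, 0.0105), as was Foxc2 (1.29, 0.00876), a forkhead factor of mesenchyme. Snai1, for Snail, was at 0.64 and was not called (adjusted p = 0.0676), though it was with DESeq2 (0.0293) and without KO replicate 1 (0.84, edgeR 0.00239). Esrp2, an epithelial splicing regulator, was lower (-3.23, SE 0.54, 0.00202), and so was Klf8 (-1.54, 0.014), described as an E-cadherin repressor, while Grhl2, an activator of E-cadherin, was higher (2.25, 0.029). Foxc2 lost its call without WT replicate 2 (0.0511) and Zeb2 without WT replicate 1 (0.0532) or 2 (0.0523). Zeb1 lost it without WT replicate 1 (0.0621) or 2 (0.0565) and with library totals (0.0548), and Klf8 without WT replicate 1 (0.0572) and under a replicate block (0.0547). Grhl2 lost it without WT replicate 1, 2 or 3 (0.105, 0.0514 and 0.103) and under a block (0.0601), and had a log2 fold change of 1.58 without KO replicate 1.

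**Figure D5:**
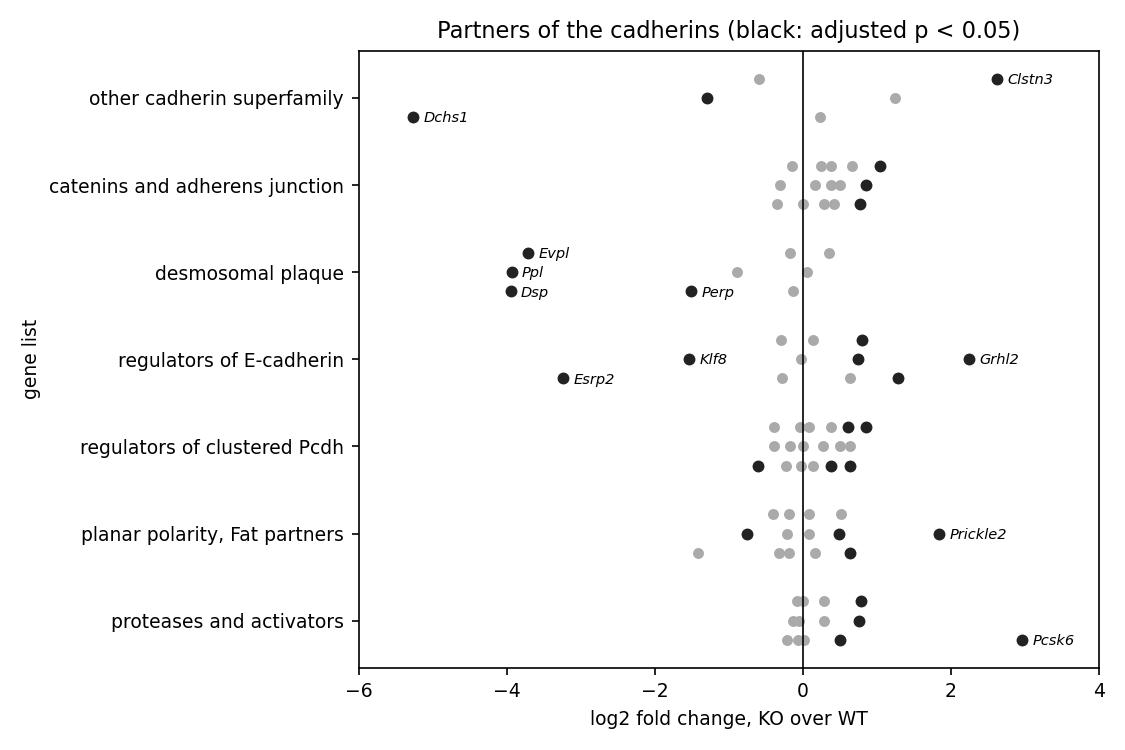
Log2 fold change of KO over WT for each tested gene of the 7 partner lists, with lists on the vertical axis and points spread vertically for legibility. Black points mark an adjusted p under 0.05. Dsp, Ppl and Evpl of the desmosomal plaque and Dchs1 lie furthest to the left, below -3.5.

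Of the 14 tested planar polarity genes and Fat partners 3 were higher, 1 lower and 10 not called (28.6% called), with a median of -0.05. Without KO replicate 1 there were 3 higher and 4 lower (50.0% called, beside 42.3% of all genes). Prickle2 rose by 1.84 (SE 0.32, edgeR adjusted p = 0.00273) and Vangl1 by 0.64 (0.00658), both core polarity genes like the Celsr genes, Lix1l was at 0.49 (0.00958) and Prickle1 at -0.75 (0.0134). Lix1l lost its call without WT replicate 2 (0.0668) and with library totals (0.0665), and Prickle1 without WT replicate 1 or 2 (0.0590 and 0.0578), without KO replicate 3 (0.0536) and under a replicate block (0.0562).

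Of 18 tested regulators of clustered protocadherin choice 4 were higher, 1 lower and 13 not called, with a median of 0.11. The share called, 27.8%, was near the 28.3% of all tested genes. There were 0 higher and 1 lower without WT replicate 1 or 2 (5.56% called, beside 17.2% and 14.9% of all genes). Without WT replicate 3 there were 2 and 1 (16.7%, beside 18.4%), and without KO replicate 1 there were 6 and 2 (44.4%, beside 42.3%). Ctcf, whose protein loops enhancers to protocadherin promoters, was at -0.39 (edgeR adjusted p = 0.169) and Smchd1, a silencer of the clusters, at 0.14 (0.453), neither called. Dnmt1, the maintenance DNA methyltransferase, was lower (-0.60, SE 0.05, edgeR adjusted p = 0.00609), and Dnmt3a, a de novo methyltransferase, was higher (0.85, 0.0142), as were the cohesin subunits Stag2 (0.64, 0.0174) and Rad21 (0.61, 0.0324) and the demethylase Kdm1a (0.39, 0.0247). Dnmt3a lost its call without WT replicate 1 (0.0649) or 2 (0.0643), and Stag2 without either (0.0561 and 0.0591), with library totals (0.0618) and under a replicate block (0.0557). Rad21 lost it without WT replicate 1, 2 or 3 (0.0809, 0.122 and 0.109) and with library totals (0.0683). Kdm1a lost it without any library but KO replicate 1 (0.0821, 0.102 and 0.0823 for WT, 0.0575 and 0.0576 for KO replicates 2 and 3), with library totals (0.178), with no filter (0.0748) and under a block (0.0817).

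Of 13 tested proteases that shed or mature cadherins 4 were higher, 0 lower and 9 not called (30.8% called), with a median of 0.01. Without WT replicate 3 there were 2 higher and 0 lower (15.4% called, beside 18.4% of all genes). Without KO replicate 1 there were 4 and 1 of 14 (35.7%, beside 42.3%). Adam10, the main sheddase of N-cadherin and E-cadherin, was at -0.06 (edgeR adjusted p = 0.799). Adam9 was at 0.79 (SE 0.06, edgeR adjusted p = 0.00217), the γ-secretase subunit Aph1a at 0.50 (0.0103), and the proprotein convertases Furin and Pcsk6 at 0.76 (0.018) and 2.96 (0.0211). With library totals Aph1a (0.0731) and Furin (0.0685) were not called, and Furin was not called without WT replicate 1, 2 or 3 (0.0706, 0.0683 and 0.0722) or KO replicate 3 (0.0543). Pcsk6 lost its call without WT replicate 3 (0.0738) and had a log2 fold change of 3.56 without WT replicate 1. The convertase gene Pcsk5 had 28, 5 and 15 counts in WT and 0 in each KO library and was not tested. Without KO replicate 1 it passed the filter and was called lower (log2 fold change -7.09, edgeR adjusted p = 0.0114). With 0 counts in KO that value is no measure of size.

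Markers of other cell types that use these cadherins were counted too, and their part in the results was not tested. Of 17 epithelial markers 6 were tested, 3 higher (Krt18, Krt19 and Grhl2) and 1 lower (Epcam, 127 counts in WT and 0 in KO). The share called was 66.7%, beside 28.3% of all tested genes. The summed level of the 17 ranged from 8.93 to 16.5 CPM in WT libraries and from 33.6 to 58.1 in KO. Krt19 (5.50 ± 2.47 and 34.7 ± 10.0 CPM in WT and KO, SD, n = 3) and Krt18 (0.183 ± 0.0233 and 8.60 ± 6.20) made up most of the KO sum. Of the other epithelial genes, Cldn3 (18 counts in WT and 0 in KO), Krt8 (19 and 8) and Esrp1 (13 and 3) had fewer in KO. So had Krt14 (11 and 2), Cldn7 (4 and 1), Elf3 (14 and 13) and Cldn4 (3 and 2). More counts in KO were found for Krt5 (3 and 11), Ehf (2 and 6), Ocln (20 and 23) and Cldn6 (0 and 1). Tjp3 (210 and 63) and Krt7 (146 and 155) were tested and not called. Of 12 endothelial markers 7 were tested, 0 higher and 2 lower (28.6%, near the share of all tested genes), and their sum was 38.2 to 41.3 CPM in WT and 20.4 to 22.4 in KO, with Cldn5 at 0. Of 10 neural crest and Schwann markers 4 were tested, 0 higher and 1 lower (25.0%), with overlapping sums of 13.3 to 17.0 and 10.3 to 18.3 CPM. Of 13 neuronal markers, of interest for the clustered protocadherins, 3 were tested, 2 higher and 0 lower, beside 13.8% and 14.5% of all tested genes. The other 10 were not tested and had at most 63 counts each over the 6 libraries. The sums of 62.6 to 70.0 CPM in WT and 119 to 144 in KO thus came mostly from the 3 tested genes. Snap25, Elavl4, Neurod1, Myt1l and Dcx were at 0 in all libraries. Of 10 skeletal muscle markers 2 were tested, both higher, beside 13.8% of all tested genes. The other 8 were not tested and had at most 54 counts each. Sums were 13.1 to 21.1 CPM in WT and 30.4 to 48.3 in KO, and Myf5 was at 0.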

How the data were processed

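Libraries of 3 WT and 3 KO samples were prepared with a TruSeq RNA v2 kit, per the labels. Each deposited file holds the authors' raw counts of reads by Ensembl gene for 1 library. The submitters' processing notes list GRCm38.p4 as the build and TopHat2 2.1.0, HTSeq and DESeq2 as tools. Not given in the sources used here are the counting mode, the strand setting and the annotation release. Of 46603 identifiers 46005 matched GENCODE M21 (GRCm38), which gave symbols, positions and exon lengths, and 598 did not. Among members 2 identifiers share the symbol Pcdha11, and 47 members share exon bases with another counted gene, so that levels per kilobase used the exon bases that no other gene shares.

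Counts were analysed in R 4.3.3 with edgeR 4.0.16. After filterByExpr by group and TMM scaling, KO and WT were compared with the two-sided quasi-likelihood F test with Benjamini-Hochberg adjustment over 15009 genes, called at 0.05. Every adjusted p comes from that test unless DESeq2 1.42.0 or limma-voom (limma 3.58.1) is named. Standard errors belong to the difference between group means of log2 CPM (n = 3 each), computed with a small prior count. The prior narrows the spread of low counts, so standard errors of genes near the limit of detection can be too small. The steps were tested on simulated data. Other settings tried were scaling by RLE, upper quartiles or library totals, DESeq2, limma-voom, no filter, a CPM of at least 1 in 3 libraries, a replicate block and each library left out. Intervals of count ratios are exact at 95%. No pair of libraries was a duplicate, with a chi-square per degree of freedom of at least 15.8.

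Named genes are the called non-clustered members, the 8 most abundant non-clustered members, untested members with at least 3 counts, the 3 most abundant and 6 most significant clustered genes and those against the trend, and 3 to 4 called genes per partner list. Pcdh7, Cdh23, Cdh26, Pcdhb14, Pcdhb20, Pcdhb21, Pcdhga9, Fat3, Pcdhga10, Pcdh15, the partner genes beyond the rule and the genes around the clusters were named after their values were seen. The members and lists were chosen with earlier results of these data known.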

Additional observations from a re-analysis of the deposited data

How the results depend on the processing

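No called result reversed its direction under any alternative run. Without 1 library, 6 uncalled clustered protocadherins crossed 0 in log2 fold change, namely Pcdhb14 (-0.0330 to 0.76), Pcdhga1 (-0.60 to 0.14), Pcdhga11 (-0.55 to 0.32), Pcdhga7 (-0.58 to 0.90), Pcdhgb6 (-0.0393 to 0.72) and Pcdhgb7 (-0.69 to 0.50). With library totals, calls over all genes were 1351 higher and 3347 lower (2074 and 2181 with TMM), and partner lists had 12 higher and 17 lower (19 and 10), and the median of all genes moved by -0.20. With the replicate number as a block, 2 clustered protocadherins were lower in place of 4. The numbers are not stated to pair the cultures, and same-numbered WT and KO libraries deviated from their groups with correlations over genes of -0.101, 0.046 and -0.148. Leaving out 1 library gave 1003 to 3075 higher and 1295 to 3462 lower genes, 0 to 5 lower clustered protocadherins, and 8 to 28 higher and 6 to 19 lower partner genes. Non-clustered members stayed at 7 to 9 higher and 5 to 6 lower, clustered ones at 7 to 11 higher. A fit without 1 library has fewer samples. Among the 44 members tested with all libraries, 9 comparisons over the other settings lost a call, 1 gained one and 328 did neither. Leaving out 1 library lost 29 of their calls, gained 5, turned 12 uncalled directions and left 218 as they were. Members that passed the filter only in another setting, such as Cdh1 and Pcdhb5 without KO replicate 1, are not in these counts. Genes under about 0.1 CPM cannot be told from 0 at this depth.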
